A study of Xenopus laevis with 12 samples.

Results

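Sham neurobots were compared with biobots, 2 kinds of small living construct made from Xenopus laevis embryonic tissue. The comparison sets animal caps with an implant of non-neural cells beside caps without one. All genes that passed a filter on low counts in these 8 libraries were tested, which left 22764 of the 44478 genes in the table. The 8 libraries, out of 12 in the series, were 4 pools of biobots (BB1 to BB4) and 4 pools of sham neurobots (SH1 to SH4). A biobot was an animal cap, the roof of the embryo cut out at Nieuwkoop and Faber stage 9, which closed into a sphere on its own. A sham neurobot was a cap of the same kind that closed around clumps of other animal cap cells, which had been dissociated in a medium without calcium and magnesium and allowed to reaggregate at once, a step meant to keep them from a neural fate. The remaining 4 libraries were neurobots (NB1 to NB4), whose implanted cells had been held apart for hours first, and their values are given only beside those of the other bots. All cells were wild type and no drug was part of these groups.

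Some features of the construction limit what each group models. Implants varied in size, the implanted cells came from many embryos, and the host caps of shams came from a later fertilization than the implanted cells, so that a sham combined cells of different fertilizations. Which clutches gave which pool was not given in the sources used here, so bot type and clutch cannot be told apart. A pool held whole bots, 16, 6, 6 and 5 in BB1 to BB4 and 5, 6, 6 and 5 in SH1 to SH4. BB1, and NB1 among the neurobots, were sequenced in a first submission and the other pools in a second. A range over the neurobots can therefore include a difference between submissions. Nothing in the labels says that pools came from separate cultures, so p-values measure the spread between these pools only. In whole bots, fewer cells of a type and less RNA per cell cannot be told apart, nor can RNA of the implant and RNA of the cap.

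As background, an animal cap left to itself becomes a mucociliary epidermis, a sheet of keratinocytes, mucus-secreting goblet cells, serotonin-releasing small secretory cells, ionocytes that move ions across the skin, and multiciliated cells that drive the swimming of the bot. BMP signalling holds the cap cells to an epidermal fate, and Notch, Wnt and other local signals set which cells of the sheet become which type. Xenopus laevis carries 2 copies of most genes, named L and S after the long and short chromosome sets, and copies that are near identical in sequence can share reads, so values of a single copy are uncertain to that extent.

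Total counts ran from 29664449 to 35995421 in biobot pools and from 27265034 to 36028614 in sham pools. BB1 stood apart from the other biobots, with a root mean square log2 distance from the rest of its group of 0.532 against 0.297 to 0.348. Among shams SH2 was the furthest at 0.454, but SH1 was near it at 0.419, with SH3 at 0.257 and SH4 at 0.271. Biobot pools had at least 1 count for 28892 to 29998 genes and sham pools for 29573 to 31524, a difference of 1332 genes that did not pass a two-sided exact permutation test (p = 0.0571, where the smallest possible is 0.0286), except without SH2 (1722 genes, exact permutation p = 0.0286). Mitochondrial transcripts took 3.69% to 4.32% of the counts in biobots and 3.13% to 4.29% in shams (two-sided exact permutation p = 0.771). The labelled tissue was checked against its markers. The summed level of epidermal markers lay between 2994 and 4779 CPM (counts scaled to a common library depth) in biobots and between 3366 and 3729 in shams, and that of multiciliated cell markers between 481 and 581 and between 446 and 562. Endoderm markers summed to at most 0.608 CPM and muscle markers to at most 0.782 CPM in all 8 pools. Neural progenitor markers summed to 12.2 to 15.8 CPM in biobots and 10.4 to 14.1 in shams, against 104 in NB1 and 247 to 325 in NB2 to NB4. In biobots and shams this sum was mostly otx2.L and otx2.S, which leaned lower in shams (-0.292 and -0.646 on the log2 scale, shams minus biobots). The other progenitor markers tested, sox3.S (0.481) and six3.S (1.563, at no more than 0.728 CPM in these pools), leaned higher. None of these progenitor markers passed the test used below. Neuron markers summed to 159.5 to 164 CPM in biobots, 139 to 148 in shams and 289.9 to 383 in neurobots. The synaptotagmin gene syt1.L made up 115 to 158 CPM of this in biobots and shams. The lower sum in shams reflects syt1.L (-0.274 on the log2 scale, shams minus biobots). The other neuron markers tested leaned higher in shams: isl1.L (1.297), isl1.S (0.817), ncam1.S (1.17) and elavl4.L (1.424). Of all these isl1.L alone passed the test used below. Both ncam1.S and elavl4.L were weak, at no more than 1.145 CPM in any biobot or sham pool. The neuronal genes stmn2.L and tubb3.L were at no more than 0.121 and 1.09 CPM in any sham. In biobots stmn2.L was at 0 and tubb3.L at no more than 0.112 CPM, and tubb3.L was at 0 in SH3 and SH4. The copy stmn2.S had 0.0285 to 0.0676 CPM in biobots and 0.0904 to 0.546 CPM in shams. These genes did not pass the filter on low counts, so their differences were not tested.

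In the test used here, some of the genes differed between shams and biobots, and most of these were higher in shams. With the quasi-likelihood test of edgeR, adjusted by Benjamini and Hochberg over all genes tested, 1306 genes (5.74%) had an adjusted p under 0.05, which is what called means below, and 5712 had an unadjusted p under 0.05. Of the called genes 808 were higher in shams (3.55% of all tested) and 498 were lower (2.19%), or 61.9% higher. DESeq2, another test for counts, was run without the filter on low counts, over 36530 genes. It called 3164 of them, 54.8% of these higher. Without that filter edgeR called 1347 of 36530 genes, 61.8% of them higher, so the number and the lean depend on the tool. They also depend on the pools, as given below. Scaling by library size alone put the median difference at 0.157 on the log2 scale and gave 1303 genes higher and 231 lower, or 84.9% higher, so the balance of directions depends on the scaling. Under the scaling used here (TMM), that median was -0.0019, with 49.8% of genes positive. Of the called genes, 425 were higher and 157 lower by at least 1 on the log2 scale. The libraries of both groups did not overlap for 766 of the genes called higher and 477 of those called lower, where 8.56% and 7.94% of all genes tested did not overlap in these directions. Genes called higher were long and weakly expressed (median length 3848 bases and median mean level 6.95 CPM) compared with those called lower (2173 bases and 25.2 CPM) and with all genes tested (2652 bases and 11.8 CPM). Whether transcript length has a part in the calls was not tested.

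**Figure D1:**
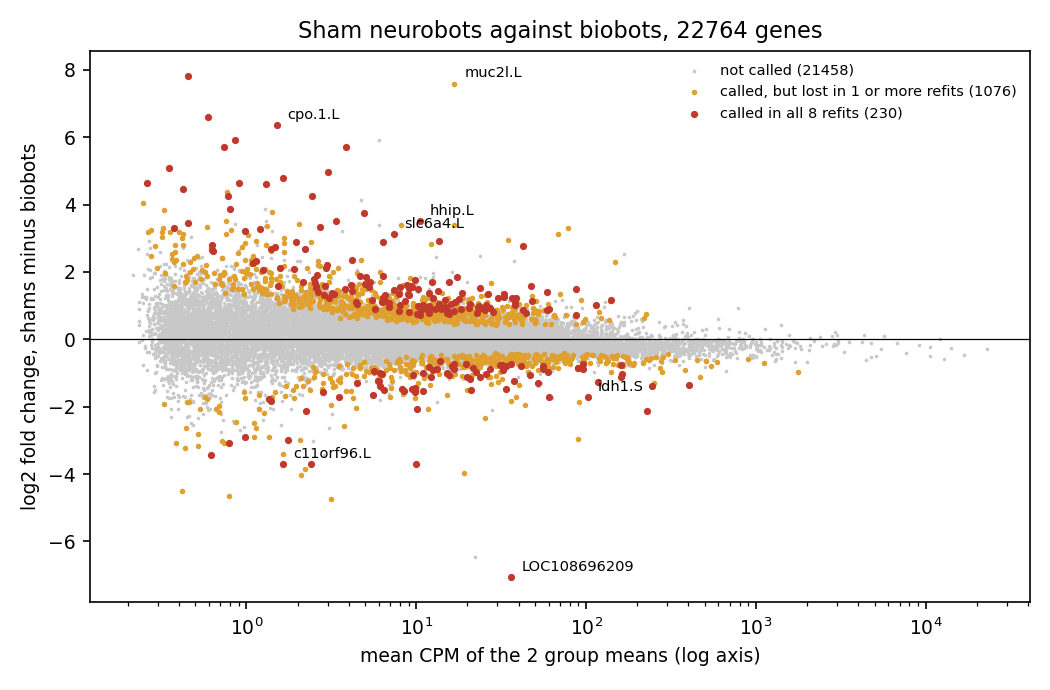
Log2 fold change of shams minus biobots against the mean level of the 2 group means, in CPM on a log axis, for each of the 22764 genes tested. Grey points were not called, orange points were called with all 8 pools but lost in 1 or more of the 8 fits that left out a pool, and the 230 red points were called in every fit. Red points lie mostly outside the orange points of like level, and LOC108696209 has the lowest value.

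The differences were then traced through 8 further fits, each without 1 pool. A total of 230 genes were called with all pools and again with each pool left out in turn, 152 of them higher in shams (0.668% of all tested) and 78 lower (0.343%), and none had overlapping groups. Passing the same test in every fit favours genes with large differences and no overlap, so the sizes that follow are partly set by the selection. Of these genes, 118 of those higher and 49 of those lower changed by at least 1 on the log2 scale. The median size was 1.42 and 1.13 on the log2 scale, against 1.03 and 0.74 for all genes called higher and lower. No gene was called in the opposite direction in any of these fits, which share most of their pools. The number called was very unequal between them. It rose to 2884 without BB1 and to 2828 without SH2, and fell to 407, 501 and 349 without BB2, BB3 and BB4 and to 482, 447 and 285 without SH1, SH3 and SH4. Of the 1306 called genes, 562 were called again only in the fits without BB1 and without SH2, so each of these genes needed all 6 other pools. With both BB1 and SH2 left out, an alternative added after the data were seen, 6493 genes were called, 3379 higher and 3114 lower, and 1297 of the 1306 genes were among them.

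**Figure D2:**
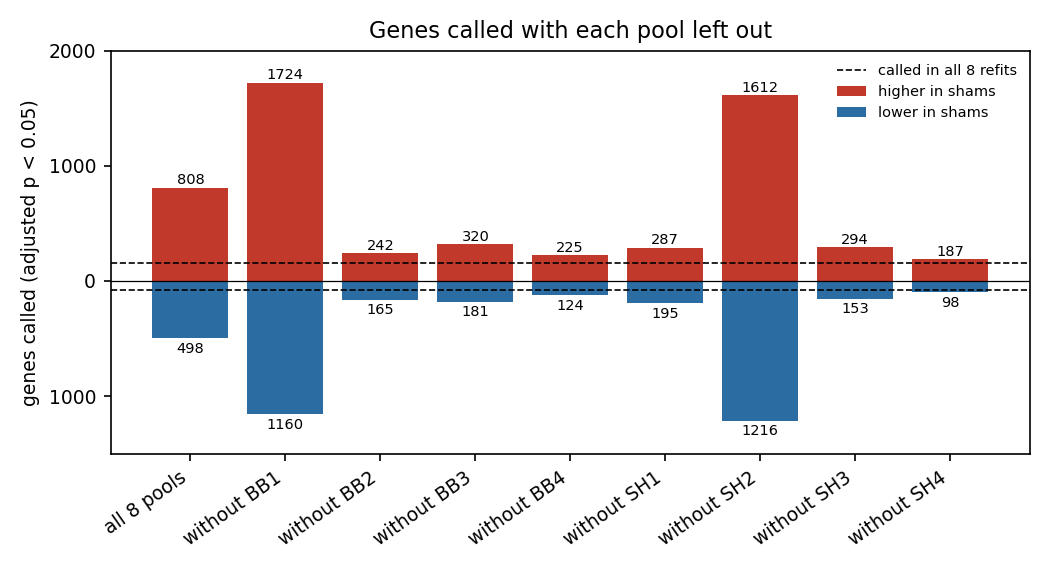
Number of genes called higher (red, up) and lower (blue, down) in shams with all 8 pools and with each pool left out. Dashed lines mark the 152 and 78 genes called in every fit, and the fits without BB1 and SH2 call 2884 and 2828 genes against 285 to 501 in the other 6.

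Genes are named from here by a rule that takes, among genes with a symbol that were called in every fit, did not overlap between groups and reached a mean of 1 CPM, the 10 per direction with the largest change and the 4 per direction with the highest level. By this rule all 28 were called with each pool left out. Among those highest in shams, hhip.L (chromosome 1L, 62407535 to 62492284, assembly v10.1) encodes a membrane protein that binds hedgehog ligands and limits their signal. Its level was 1.15, 1.94, 2.23 and 1.46 CPM in BB1 to BB4 and 24.1, 15.2, 19.4 and 18.3 CPM in SH1 to SH4. Every sham pool was above every biobot pool, by 11.4-fold on average (log2 fold change 3.51, SE 0.23, adjusted p = 0.000109). Among neurobots NB1 held 13.8 CPM and NB2 to NB4 held 61.9 to 70.1 CPM. The S copy was at or near 0 in all 8 pools, at no more than 0.0904 CPM.

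The serotonin transporter gene slc6a4.L (2L, 31505683 to 31568008) was at 2.01, 1.25, 1.55 and 1.36 CPM in the biobot pools and at 24.3 CPM in SH1, 7.35 CPM in SH4 and between these in the other shams. SH1 was the highest sham, and all shams exceeded all biobots (log2 fold change 3.12, SE 0.37, adjusted p = 0.00359). Its S copy was weakly expressed and was not called (1.19, SE 0.39, adjusted p = 0.0891). The tankyrase gene tnks.S, which the annotation places on 1L (106224211 to 106352618), encodes an enzyme that marks axin for degradation. It held 1.37 to 1.59 CPM in biobots and 16.8, 4.01, 14.2 and 9.85 CPM in SH1 to SH4, with SH2 the lowest (log2 fold change 2.90, SE 0.38, adjusted p = 0.00546). The MPN domain gene mpnd.S rose from 2.69 to 3.93 CPM in biobots to 13.2 to 36.7 CPM in shams, where SH2 was the highest (2.93, SE 0.28, adjusted p = 0.00103).

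Other genes of this group were low in both kinds of bot. The gene of the Ras effector rin1.S held 0.298 to 0.826 CPM in biobots and 2.44 to 10.4 CPM in shams (log2 fold change 3.33). Klotho, kl.L, a coreceptor for an FGF hormone in mammals, had 0.0996 to 0.298 CPM against 1.27 to 4.30 CPM, with SH1 far above the other shams (3.29). The squalene epoxidase gene sqle.S, an enzyme of cholesterol synthesis, had 0.101 to 0.298 CPM against 1.295 to 2.23 CPM (3.22). For the next genes biobots held so few reads that a ratio of counts with its 95% interval, which covers counting error only, is given in place of the fitted value. The carboxypeptidase gene cpo.1.L (9_10L, 92436830 to 92453529), related to a digestive enzyme of the gut lining in mammals, held at most 0.0664 CPM in biobots and 3.67, 3.95, 2.55 and 1.84 CPM in SH1 to SH4, a ratio of 91.3 (35.6 to 335). The acyltransferase gene dgat2l6.L had a ratio of 68.7 (23.5 to 333), at 1.39, 3.50, 0.349 and 1.54 CPM in shams. The mccc2.L gene, for a subunit of an enzyme of leucine breakdown, had 0.753 to 1.87 CPM in shams and was at 0 in all biobot pools but BB2 (0.0855 CPM), a ratio of 58.8 (20.1 to 285). Its S copy was far more abundant, at 53.7 to 64.5 CPM in biobots and 43.7 to 50.7 CPM in shams, and was not called (-0.27, SE 0.11, adjusted p = 0.162).

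Genes lower in shams included enzymes of intermediary metabolism. The cytosolic isocitrate dehydrogenase gene idh1.S (9_10S, 81244213 to 81261080), which makes NADPH, was at 162, 143, 164 and 157 CPM in BB1 to BB4 and at 40.3, 61.6, 36.1 and 50.7 CPM in SH1 to SH4. The groups were far apart, and the level in shams was 0.305 of that in biobots (log2 fold change -1.71, SE 0.17, adjusted p = 0.00108). Its more abundant L copy, at 693 to 767 CPM in biobots and 503 to 704 CPM in shams, was not called (-0.29, SE 0.14, adjusted p = 0.229). The aldo-keto reductase gene akr1c8p.S had 94.6, 109.6, 78.95 and 87.4 CPM in biobots and 20.6, 27.7, 34.98 and 29.3 CPM in shams (-1.70, SE 0.17, adjusted p = 0.00114).

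Sugar handling in the secretory route was represented by gfus.L, which makes the GDP-fucose used to build glycans, and by slc35a3.2.S, of a family that carries UDP-N-acetylglucosamine into the Golgi. The first, which the annotation places on 6S (136195004 to 136283265), had 340, 627, 701 and 669 CPM in BB1 to BB4 and 222, 197, 253 and 233 CPM in SH1 to SH4. BB1 was the lowest biobot but still above every sham (-1.35, SE 0.22, adjusted p = 0.0095). The second had 185 to 225 CPM against 101 to 136 CPM (-0.77, SE 0.13, adjusted p = 0.0116), while its L copy was weak and was not called. The gene for complement component 9, c9.L, part of the pore that complement forms in microbes, had 176 to 261 CPM in biobots and 78.8 to 135 CPM in shams (-1.11, SE 0.18, adjusted p = 0.00989), whereas neurobots held 2114 to 3755 CPM.

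The largest falls by the same rule, those of c11orf96.L, ca7.S, hba-l5.L, prom2.L and eml2.L, were in weakly expressed genes. The uncharacterised c11orf96.L held 1.72 to 4.78 CPM in biobots and 0.0909 to 0.512 CPM in shams (-3.72, SE 0.53, adjusted p = 0.00694). The carbonic anhydrase gene ca7.S held 1.53, 3.65, 3.95 and 3.39 CPM in biobots and 0.424, 0.392, 0.384 and 0.332 CPM in shams, a tight group that lay below every biobot (-3.00, SE 0.35, adjusted p = 0.003). The alpha-globin gene hba-l5.L had 1.303 to 2.43 CPM against 0.105 to 0.364 CPM (-2.90), and prom2.L, a gene of a protein of membrane protrusions, 2.94 to 4.48 CPM against 0.667 to 1.02 CPM (-2.13). Falls of -1.82 in eml2.L, -1.65 in rhebl1.S, -1.55 in tmprss2.1.L and -1.53 in ola1.S had SE between 0.16 and 0.32. The last of these genes had means of 8.42 (rhebl1.S), 12.7 (tmprss2.1.L) and 16.4 CPM (ola1.S) in biobots. The more abundant idh1.S and akr1c8p.S, given above, fell by slightly more and belong to the same selection by size. The other copies ca7.L (-0.29), rhebl1.L (-0.77), tmprss2.1.S (-0.51) and ola1.L (-0.35) were not called. Of these ola1.L was far more abundant than ola1.S, at 104 to 116 CPM in biobots and 72.5 to 102 CPM in shams.

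**Figure D3:**
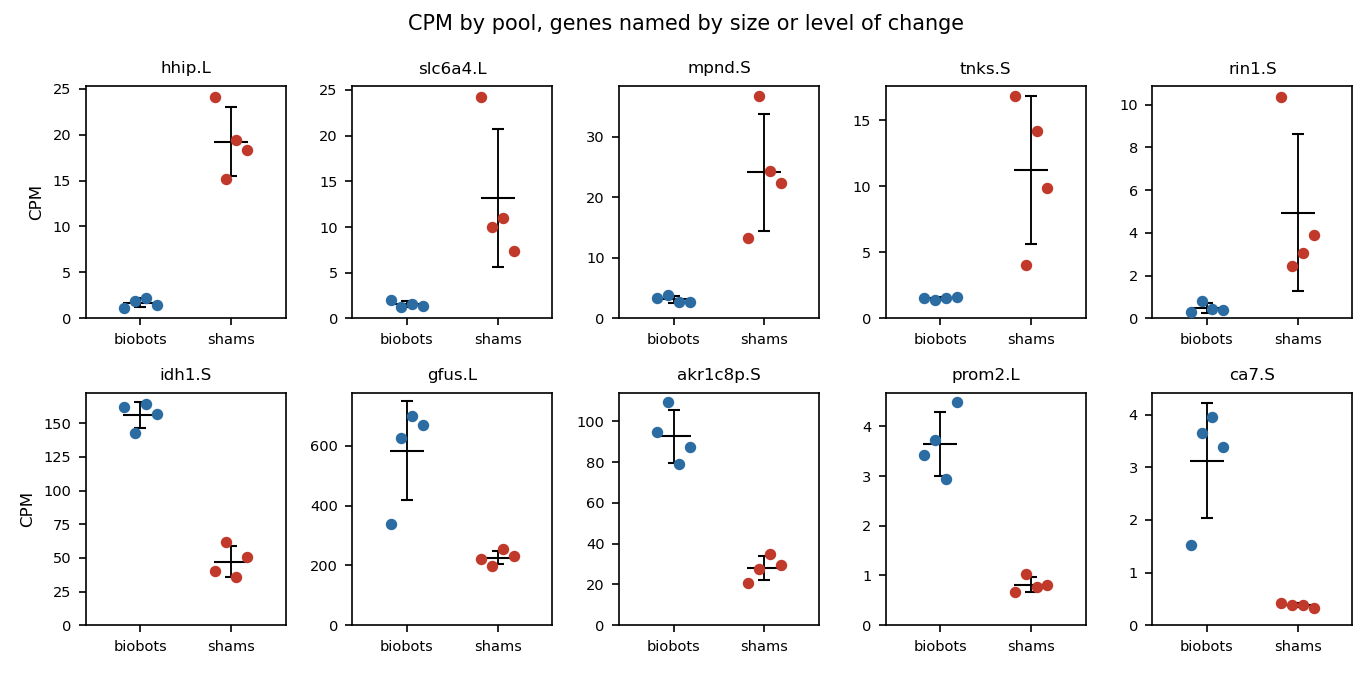
CPM in each pool for 10 genes named by the size or level of their change. Points are pools, 1 to 4 from left to right, black lines the group means and error bars the SD over 4 pools, and in every panel the 4 biobots (blue) and 4 shams (red) do not overlap, as in idh1.S with 143 to 164 CPM against 36.1 to 61.6 CPM.

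The gene with the lowest fold change of all has no symbol and so falls outside this rule, and it was chosen after its values were seen. LOC108696209 (7L, 35590261 to 35613169), annotated as uncharacterised, had 66.5, 54.4, 89.3 and 78.3 CPM in BB1 to BB4 and 0.485, 0.753, 0.174 and 0.663 CPM in SH1 to SH4. It was abundant in every biobot and nearly undetected in every sham (-7.07, SE 0.32, adjusted p = 3.62e-06). In neurobots NB1 held 48.0 CPM and NB2 to NB4 held 0.142 to 0.259 CPM.

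Epidermal regulators were then examined, since both bots are mainly epidermis. In a list of 41 tested genes of keratinocytes and their regulators, 10 were higher in shams and 1 was lower (26.8% called, against 5.74% of all genes), and 4 and 1 of these were called in every fit. The median of the list was 0.08 on the log2 scale, and 21 of the 41 changes were positive. At an unadjusted p under 0.05, 14 were higher and 7 lower, and DESeq2 called 12 higher and 5 lower. Of all 22764 genes 5712 had an unadjusted p this low, and DESeq2 called 3164 of 36530. The transcription factor gene grhl3.L, a regulator of the epidermal barrier (2L, 57307243 to 57323355), had 80.2, 85.9, 95.7 and 87.8 CPM in BB1 to BB4 and 187, 194, 192 and 204 CPM in SH1 to SH4. Both groups were tight and lay far apart, a 2.25-fold difference (1.17, SE 0.11, adjusted p = 0.00103). Its S copy was higher too (0.64, adjusted p = 0.026, called in 3 of the 8 fits), and so were its relatives grhl2.L (0.79, called in all 8) and grhl2.S (0.98, called in 3).

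The transcription factor genes tfap2c.L and dlx5.S, which act early in surface ectoderm, were also higher with each pool left out. The first had 61.5 to 93.7 CPM in biobots and 124 to 173 CPM in shams (1.00, SE 0.16, adjusted p = 0.0095), and the second 14.3 to 20.3 CPM and 31.3 to 33.9 CPM (0.87, SE 0.13, adjusted p = 0.00791). The basal keratinocyte regulator tp63.S (0.86), tfap2a.S (0.49), klf5.S (0.81) and the keratin krt19.L (0.76) were called higher with all pools, and the call was lost in 5 or 6 of the 8 fits. The single member that edgeR called lower was cdh1.L, a copy of the E-cadherin gene. It was at 26.7 to 33.8 CPM in biobots and 13.0 to 16.1 CPM in shams (-0.97, SE 0.13, adjusted p = 0.00546). The copy cdh1.S, at 496 to 941 CPM over the 8 pools, was not called (-0.01). Of 31 keratin genes tested, krt19.L alone was called (3.23%, against 5.74% of all genes).

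Other cell types of the skin were examined next. None of 22 regulators of multiciliated cells and none of 29 genes of the ciliary axoneme was called by edgeR. Of all genes 5.74% were called, a share that gives few calls in lists of this size. At an unadjusted p under 0.05 the first list had 3 genes higher and 3 lower and the second 0 and 2, and DESeq2 called 1 regulator higher and 1 axoneme gene lower. Of all 22764 genes 5712 had an unadjusted p this low, and DESeq2 called 3164 of 36530. Without SH2 edgeR called 3 regulators higher and 1 lower and 2 axoneme genes higher, and without both BB1 and SH2 it called 4 and 1 regulators and 8 axoneme genes higher, with no axoneme gene lower. These fits called 2828 of 23251 and 6493 of 23073 genes over all genes. Among 31 ionocyte genes 4 were lower and none higher by edgeR (1 higher at an unadjusted p under 0.05, none by DESeq2). That is 12.9% called, against 5.74% of all genes, and 1 of them, scnn1b.S, a subunit of the epithelial sodium channel, was called in every fit. It had 57.7, 73.8, 76.3 and 90.6 CPM in biobots and 38.7, 24.5, 33.1 and 23.7 CPM in shams (-1.29, SE 0.19, adjusted p = 0.00789). The others were scnn1g.S (-0.52), the anion exchanger slc4a1.S (-0.75) and the transcription factor dmrt2.L (-1.14). The list median was -0.21, and with library size scaling it was -0.08 with 1 gene called lower, where 231 of all 22764 genes were. The summed level of ionocyte markers ran from 973 to 1155 CPM in biobots and from 556 to 946 CPM in shams, with no overlap. In neurobots it was 570 CPM in NB1 and 28.4 to 67.8 CPM in NB2 to NB4. None of the 6 ionocyte markers was called, and atp6v1b1.L, a proton pump subunit and the most abundant of them, was at 802 to 886 CPM in biobots and 424 to 693 CPM in shams (-0.53, adjusted p = 0.0762).

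Goblet and small secretory cell genes (11 tested) held no call by edgeR, where 5.74% of all genes were called. In this list 4 were lower at an unadjusted p under 0.05 and 2 lower by DESeq2. In either direction 5712 of 22764 and 3164 of 36530 genes passed. Their summed markers lay between 17960 and 20630 CPM in biobots and between 11190 and 17530 CPM in shams. Nearly all of this sum was itln1.L, the intelectin of skin mucus (-0.45, adjusted p = 0.171). Whether a change in the mix of skin cell types has a part in the called genes was not tested. The summed blood markers were 202 CPM in BB3 and 0.826 to 1.90 CPM in the other 7 pools, and hba3.L, an alpha-globin, alone made up 175 CPM of BB3.

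Genes that carry and dampen BMP signals were higher in shams where they differed. Of 56 tested genes of the BMP and TGF-beta pathway, 6 were higher in shams and none was lower by edgeR, so that 10.7% were called against 5.74% of all genes, and 4 of them were called in every fit. At an unadjusted p under 0.05, 26 were higher and 2 lower, and DESeq2 called 14 higher and none lower. Of all 22764 genes 5712 had an unadjusted p this low, and DESeq2 called 3164 of 36530. The list median was 0.48 (0.64 with library size scaling). The ligand gene bmp2.S had 3.02, 2.11, 3.78 and 1.86 CPM in BB1 to BB4 and 7.40, 8.23, 6.03 and 9.43 CPM in SH1 to SH4, with no overlap (1.55, SE 0.25, adjusted p = 0.0094). Its copy bmp2.L was called higher in 7 of the 8 fits (1.89, SE 0.37, adjusted p = 0.0195). The inhibitory Smads act inside the cell against the receptors. The gene smad7.S rose from 4.15 to 5.58 CPM in biobots to 12.1 to 16.4 CPM in shams (1.58, SE 0.16, adjusted p = 0.00114). Its other copy smad7.L had 8.07 to 13.9 CPM and 21.9 to 30.2 CPM (1.38, SE 0.19, adjusted p = 0.00546).

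A second inhibitory Smad, smad6.S, had 16.5 to 30.3 CPM in biobots and 45.2 to 57.7 CPM in shams (1.03, SE 0.18, adjusted p = 0.0146). The decoy receptor gene bambi.L was higher as well (0.81, adjusted p = 0.0406, called in 4 of 8 fits). Neurobots held 1.53 to 5.65 CPM of smad7.S. Without BB1, 17 genes of this list were higher, and without both BB1 and SH2 24 were. Over all genes these fits called 1724 of 23339 and 3379 of 23073 higher.

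In the list of Wnt pathway genes and targets, 11 of 52 were higher and 1 was lower. That is 23.1% called, against 5.74% of all genes, and the list median was 0.40 (0.58 with library size scaling). The number higher ran from 2 to 16 over the fits without 1 pool, where 187 to 1724 of all genes were higher. The feedback inhibitor axin2.L, a widely used target of Wnt signalling, had 17.1, 17.1, 19.9 and 18.7 CPM in the biobot pools and 49.5, 33.8, 42.6 and 42.5 CPM in the sham pools. Biobots were tight, SH2 was the lowest sham, and the groups were well apart (1.23, SE 0.14, adjusted p = 0.00275). The other copy axin2.S was called higher in 4 of 8 fits (1.03, adjusted p = 0.0214), and LOC108701205, annotated as axin-2 and chosen after its values were seen, had 0.558 to 1.40 CPM against 3.77 to 5.97 CPM (2.12, SE 0.29, adjusted p = 0.00561). The receptor gene fzd2.S had 7.87 to 10.9 CPM in biobots and 17.5 to 24.6 CPM in shams (1.17, SE 0.16, adjusted p = 0.00561).

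Other Wnt members called higher were the ligands wnt10a.L (1.14) and wnt3a.S (1.52), the receptors fzd3.L (0.82) and fzd3.S (1.34), and the feedback genes rnf43.S (0.73), nkd1.L (0.83), dact1.L (1.31) and dact1.S (1.49), whose calls were each lost in 3 or more fits. The ligand wnt7b.L was lower (-1.77, adjusted p = 0.0341, called in 2 fits). Of 27 Notch pathway genes 14.8% were called, against 5.74% of all genes. The Notch ligand gene jag1.L was higher in every fit, at 1.74 to 2.20 CPM in biobots and 4.22 to 5.45 CPM in shams (1.35, SE 0.20, adjusted p = 0.00723). Its copy jag1.S (1.61) and the receptor notch1.S (1.39) were called higher, and the target hes4.S lower (-0.83), each in 2 of 8 fits and with overlapping groups. Of 22 FGF pathway genes, il17rd.S was higher and etv1.S, spry1.S and spry2.L were lower, none in more than 2 fits. That is 18.2% called, against 5.74% of all genes.

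**Figure D4:**
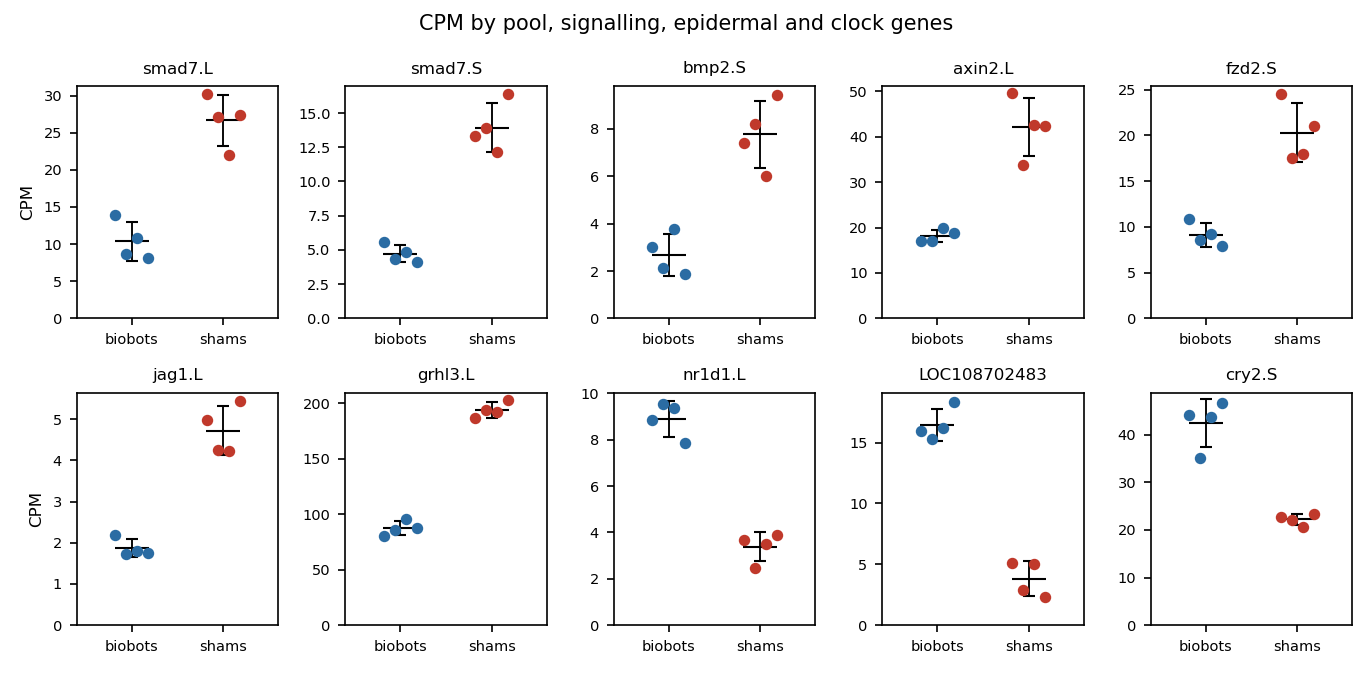
CPM in each pool for 10 signalling, epidermal and clock genes called with each pool left out. Points are pools, 1 to 4 from left to right, black lines group means and error bars SD over 4 pools. The top row, jag1.L and grhl3.L are higher in shams (red), while nr1d1.L, LOC108702483 and cry2.S are lower, as in cry2.S with 35.2 to 46.6 CPM in biobots and 20.7 to 23.4 CPM in shams.

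Several other genes of the hedgehog route were looked up after hhip.L was seen. This route was not among the gene lists used here, so no share of calls is set against that of all genes. The effector gene gli2.L had 3.36 to 5.77 CPM in biobots and 8.02 to 13.9 CPM in shams (1.36, SE 0.22, adjusted p = 0.0101), and gas1.L (0.86, adjusted p = 0.0136) and gas1.S (1.195, adjusted p = 0.00812), which encode a coreceptor for hedgehog ligands, were higher too, all in every fit. The signal transducer copies smo.L (0.93, adjusted p = 0.02) and smo.S (1.07, adjusted p = 0.0454) and the inhibitor sufu.S (0.60, adjusted p = 0.0455) were called higher in 4, 2 and 2 of the 8 fits. The receptor and target genes ptch1.L (-0.14), ptch1.S (0.51) and gli1.S (1.43), and gli2.S (0.91), gli3.L (0.26), gli3.S (0.06) and sufu.L (0.20), were not called.

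Genes of the circadian clock were lower in shams where they passed the test, except for bhlhe40.S, a transcriptional repressor of the clock, which was called higher with library size scaling and by DESeq2 but not in the test used here. Of 24 clock genes tested 5 were lower and none higher by edgeR, 2 of them in every fit. That is 20.8% called, against 5.74% of all genes. The median of the list was -0.03, and most of its genes did not pass. With library size scaling 2 were lower and 1 higher, and at an unadjusted p under 0.05 6 were lower and 2 higher. Of all 22764 genes, library size scaling called 231 lower and 1303 higher, and 5712 had an unadjusted p under 0.05. The nuclear receptor nr1d1.L, a repressor at the core of the clock, had 8.86, 9.54, 9.36 and 7.84 CPM in BB1 to BB4 and 3.67, 2.47, 3.49 and 3.89 CPM in SH1 to SH4. The highest sham was far below the lowest biobot (-1.38, SE 0.18, adjusted p = 0.00543). The cryptochrome cry2.S had 35.2 to 46.6 CPM and 20.7 to 23.4 CPM (-0.92, SE 0.12, adjusted p = 0.00546).

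The remaining clock calls were cry2.L (-0.76, called in 5 fits), per3.L (-0.73, 3 fits) and nfil3.L (-1.72, 2 fits). Genes annotated as clock repressors without a symbol, chosen after their values were seen, were also lower in every fit. LOC108702483, annotated as NR1D1, had 15.3 to 18.3 CPM in biobots and 2.29 to 5.12 CPM in shams (-2.08, SE 0.25, adjusted p = 0.00359), and neurobots held 9.12 to 14.9 CPM. LOC108700366 (-1.57) and LOC108699397 (-1.13), annotated as a circadian-associated transcriptional repressor, had 10.4 to 21.6 CPM against 4.00 to 6.27 CPM and 13.4 to 23.0 CPM against 6.15 to 8.59 CPM. The hour at which each pool was collected was not given in the sources used here, so hour and bot type cannot be told apart.

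Most genes that edgeR called in lipid and sterol metabolism were higher in shams, and most that it called in the cell cycle were lower. Of 51 lipid and sterol genes 6 were higher and 1 was lower (lpl.S, lipoprotein lipase, -0.65), so that 13.7% were called against 5.74% of all genes, with a median of 0.02. DESeq2 called 7 of this list higher and 5 lower, and 3164 of 36530 genes in all. Beside sqle.S, lanosterol synthase, lss.S, was higher in every fit, at 1.22 to 1.83 CPM in biobots and 3.03 to 4.28 CPM in shams (1.39, SE 0.22, adjusted p = 0.00951). The sterol enzymes cyp51a1.S (1.88) and hmgcs1.S (0.73), the LDL receptor ldlr.S (1.37) and the fatty acid elongase elovl5.L (0.99) were called in 1 to 3 of the 8 fits. Of 58 cell cycle genes 7 were lower and 1 was higher (13.8% called), with a median of -0.23. The mitotic kinesin gene kif11.L had 33.4 to 46.1 CPM in biobots and 21.3 to 25.5 CPM in shams (-0.77, SE 0.13, adjusted p = 0.0127), and was the member called in every fit. Also lower were kif11.S (-0.59), aurka.S (-0.61), cdc6.L (-0.68), rrm1.S (-0.65), bub1b.L (-0.49) and cdk1.L (-0.58). The G1 cyclin ccnd1.S was higher (0.69). Without BB1 16 of these genes were lower, and with library size scaling 1 was. Over all genes these fits called 1160 of 23339 and 231 of 22764 lower.

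Calls in the innate immune list (10% of its genes), the hypoxia and glycolysis list (9.26%) and the heat shock and unfolded protein response list (14%), against 5.74% of all genes, were mostly lower in shams. The cytokine feedback gene socs3.S had 11.7 to 19.96 CPM in biobots and 2.65 to 6.30 CPM in shams (-1.49, SE 0.27, adjusted p = 0.0146, every fit), and socs3.L (-1.44) and irf8.L (-0.85) were lower as well, the only calls among 30 innate immune genes. Of 54 hypoxia and glycolysis genes 4 were lower and 1 higher. The oxygen-sensing hydroxylase gene egln3.L was lower in every fit (6.71 to 9.94 CPM against 3.58 to 4.50 CPM, -1.01, SE 0.17, adjusted p = 0.0115), pgam1.S (-1.03), hk2.S (-0.84) and pck1.L (-0.98) were called lower in 3 to 7 fits, and adm.L was higher (1.92). Of 43 heat shock and unfolded protein response genes 4 were lower and 2 higher, none in every fit.

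None of 132 cytosolic ribosomal protein genes, 12 mitochondrially encoded protein genes or 40 collagen genes was called by edgeR, against 5.74% of all genes. At an unadjusted p under 0.05, 1 ribosomal protein gene was lower and 3 collagen genes were higher, and DESeq2 called 2 collagen genes higher and none in the other lists. Of all 22764 genes 5712 had an unadjusted p this low, and DESeq2 called 3164 of 36530. Without SH2 8 ribosomal protein genes were called lower, and without both BB1 and SH2 26 were lower. Over all genes these fits called 1216 of 23251 and 3114 of 23073 lower. Collagen genes called higher numbered 2 without BB1 and 8 without both pools, where 1724 of 23339 and 3379 of 23073 genes were higher. Of 66 proteasome genes psmd11.L alone was lower (1.52% called), whereas 47 were lower without BB1 and SH2. Among 66 extracellular matrix genes 3 were higher and 2 lower (7.58% called), and decorin, dcn.S, a collagen-binding proteoglycan, was lower in every fit, at 41.6, 64.2, 47.0 and 58.2 CPM in biobots and 18.7, 24.9, 19.7 and 24.5 CPM in shams (-1.25, SE 0.16, adjusted p = 0.00542). Its L copy was not called (0.43). Of 340 solute carriers 7 were higher and 15 lower, a share of 6.47% that is near the 5.74% of all genes. Besides slc6a4.L and slc35a3.2.S those called in every fit were slc2a11.L, of the sugar transporter family (2.06), the anion exchanger slc26a6 (-1.19) and the copper transporter slc31a1.S (-0.91). Among 41 cytochrome P450 genes 2 were higher and 2 lower (9.76% called), and among 43 wound and immediate early genes jund.L (0.80) and jund.S (0.74) were higher and ier5.S (-0.71) was lower, none in all 8 fits (6.98% called). Of 16 claudin genes cldn34.S alone was called (1.37), and of 19 tubulin genes tubb4a.S alone (-0.71), each in 2 of the 8 fits. These shares, 6.25% and 5.26%, are near the 5.74% of all genes. DESeq2 called 3 claudins higher and 2 lower, and 1 tubulin higher and 3 lower.

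**Figure D5:**
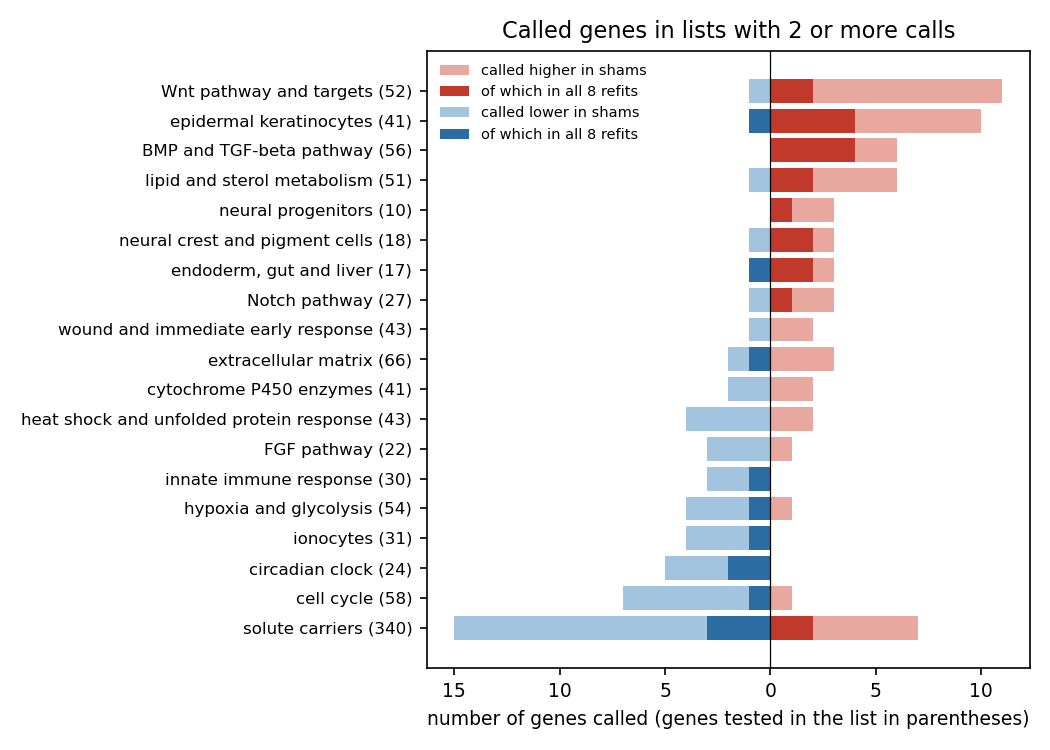
Number of genes called higher (right) and lower (left) in shams in each gene list with 2 or more calls, with the number of genes tested in parentheses. Dark bars mark the genes called with each pool left out. The Wnt and epidermal lists have the most genes higher (11 and 10), and the solute carriers and cell cycle lists the most lower (15 and 7).

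Lists of genes used as markers of tissues that a cap does not normally make were examined as well. Some of their members, such as ets1.L, were also expressed in every biobot pool. Of 14 neuronal genes tested isl1.L alone was called (1.297, adjusted p = 0.0221), which is 7.14% of the list against 5.74% of all genes. The list nevertheless leaned higher in shams, with 11 of the 14 changes positive and a median of 0.62. At an unadjusted p under 0.05, 4 were higher and 1 lower, and DESeq2 called 1 higher and 1 lower. Of all 22764 genes 5712 had an unadjusted p this low, and DESeq2 called 3164 of 36530. The gene isl1.L was called in 5 fits. It was at 2.51 to 4.21 CPM in biobots, 6.66 to 11.9 CPM in shams and 1.81 to 5.77 CPM in neurobots. The progenitor factor sox11.L was higher in every fit, at 4.15 to 8.92 CPM and 15.7 to 18.3 CPM (1.39, SE 0.21, adjusted p = 0.00856). Its copy sox11.S (1.08) and sox21.L (1.21) were called in 3 and 2 fits, in a list of 10 tested genes (30% called). Neurobots held 8.80 to 17.85 CPM of sox11.L. For sox21.L they held 4.75 to 10.8 CPM, against 2.23 to 3.64 CPM in shams. Among 18 neural crest and pigment cell genes, of which 22.2% were called, the transcription factor ets1.L had 38.8, 30.8, 34.4 and 25.1 CPM in biobots and 90.5, 96.8, 74.4 and 79.8 CPM in shams (1.42, SE 0.15, adjusted p = 0.0022), and ets1.S moved with it (1.61, SE 0.23, adjusted p = 0.00713). The gene tfap2e.S was called higher in 7 fits (3.09), while snai2.S, a crest factor, was called lower in 3 (-1.15). Neurobots held 37.6 to 53.05 CPM of ets1.L. For tfap2e.S they held 10.5 to 12.1 CPM, against 0.964 to 2.91 CPM in shams.

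No gene was called by edgeR in the lists of cement gland (5 tested), muscle and mesoderm (7), notochord and cartilage (4), blood and endothelium (15) and Hox genes (6). Of all genes 5.74% were called, a share that leaves little room for calls in lists this short. At an unadjusted p under 0.05 these lists had 1, 4, 0, 5 and 1 genes higher and 1, 1, 0, 1 and 0 lower, in the same order, and DESeq2 called 1, 1, 0, 4 and 0 higher and 0, 1, 0, 0 and 0 lower. Of all 22764 genes 5712 had an unadjusted p this low, and DESeq2 called 3164 of 36530.

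Of 17 genes of endoderm, gut and liver 3 were higher and 1 lower (23.5% called, against 5.74% of all genes). Besides cpo.1.L, the nuclear receptor gene nr1h5.L (2L) was at 0 in all 4 biobots and at 1.06, 0.783, 1.15 and 0.603 CPM in the shams, so that it was at least 9.04-fold higher against a floor of 3 counts per library (adjusted p = 0.00546), and neurobots were at 0 as well. The mucin gene muc2l.L was at 0.101 to 0.256 CPM in biobots and at 95.4, 30.2, 6.42 and 0.392 CPM in SH1 to SH4, so the shams spread over a wide range, and it was called in 2 of the 8 fits (7.59, SE 1.56, adjusted p = 0.0266). In neurobots it was at 33.5 CPM in NB1 and at 1361 to 1801 CPM in NB2 to NB4. The protease inhibitor a2m.S was lower in every fit, at 20.2 to 39.2 CPM and 8.94 to 12.9 CPM (-1.51, SE 0.20, adjusted p = 0.00546).

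Homeologs that were called together always had the same direction. Of 5473 pairs with both copies tested, 79 had both copies called in the same direction and none in opposite directions, and 510 had 1 copy called, with the other copy of the same sign in 418. Copies that share reads can move together, and agreement of sign over all pairs was not counted, so these counts have no background beside them. Both copies were called in every fit for 8 pairs, named after their values were seen. Of these bnc1, for an epidermal zinc finger protein, pcdh7, for a protocadherin, gas1, ets1, smad7 and krcc1 were higher in shams, and paics.1, for an enzyme of purine synthesis, and XB5864909 were lower. The gene pcdh7.L was at 18.0 to 28.3 CPM in biobots and 50.1 to 86.4 CPM in shams (1.59, SE 0.20, adjusted p = 0.00455) and pcdh7.S at 5.55 to 8.90 and 19.1 to 37.3 CPM (1.85, SE 0.24, adjusted p = 0.00546).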

How the data were processed

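Polyadenylated RNA of pooled bots was sequenced with a low-input, non-directional library. Per the submitters' processing notes and the study's methods, reads were aligned by the authors to Xenopus laevis v10.1 with HISAT2 2.0.5, assembled with StringTie 1.3.3b and counted per gene with featureCounts 1.5.0-p3. The authors deposited raw counts per gene, used here for all tests, and FPKM values, which the authors computed from gene length and counts and which served in an alternative. No source used here says that the counting took strand into account, so reads of overlapping or antisense genes cannot be told apart. All value columns were mapped to samples.

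Genes were filtered by expression (filterByExpr, minimum count 10, minimum total 15), scaled by TMM and tested with edgeR 4.0.16 (quasi-likelihood, robust) in R 4.3.3 with Benjamini-Hochberg adjustment at 0.05. Log2 fold changes are shams minus biobots. CPM values are TMM-scaled over all 12 libraries. The fit, with its filter and scaling, was repeated without each of the 8 pools, and alternatives used DESeq2 1.42.0, limma 3.58.1 on log2(FPKM + 1) and log2(FPKM + 0.1), other scaling and filters, all 12 libraries, and a replicate block. The test was checked on simulated counts. Named genes were, per direction, the 10 of largest change and 4 of highest level among genes with a symbol, called in every fit, without overlap and at a mean of 1 CPM or more in the higher group, 1 per homeolog pair, and members of 35 gene lists. Some genes that the rule selects are not reported here. The genes, lists and rules were chosen with earlier results of these data known. Of 44478 genes in the table, 44453 matched the RefSeq gene table. Total counts per library were 27265034 to 36028614. Counting intervals and floors cover counting error only.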

Additional observations from a re-analysis of the deposited data

Results flagged for a closer look

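Single pools stood apart from the other 3 of their group for 2 of the 66 groups of 4 values examined, by Dixon's ratio of the gap to the nearest value over the whole range against its 95% critical value, and chance gives about 1 in 20. The mccc2.L gene was at 0.0855 CPM in BB2 and at 0 in the other biobot pools, a level of a few reads. The kl.L gene was at 4.30 CPM in SH1 and at 1.27 to 1.604 CPM in the other shams, all above the biobots.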

How the results depend on the processing

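The number of genes called depended on the pools and the tool. Leaving out a pool gave 285 to 2884 genes, 187 to 1724 higher and 98 to 1216 lower. DESeq2, over 36530 genes, called 3164 (1734 higher, 1430 lower), and the edgeR fit of all 12 libraries, over 25133 genes, called 351 (214 higher, 137 lower). Without both BB1 and SH2, chosen after seeing the data, 6493 were called (3379 higher, 3114 lower). Library size scaling gave 1303 higher and 231 lower. The replicate block, for samples with the same replicate number, called 929 genes (577 higher, 352 lower). Same-numbered pools did not deviate together (r of 0.196, -0.139, 0.027 and -0.021 across genes) and BB3 was closest to SH2 (0.374), so the numbers were not taken as pairs. The genes called with each pool left out numbered 230, and 1181 by DESeq2, which included all 230, 205 with library size scaling (178 shared), 223 with RLE factors (219 shared) and 202 with a filter at a mean of 1 CPM (199 shared). No gene called was called in the opposite direction in any of these alternatives. They share pools, and the 28 genes named by rule were picked for calls in every fit. Agreement in direction is therefore no independent support. Of the 28 genes named by rule, none changed direction, and 5 lost their call in an alternative: rin1.S (adjusted p = 0.0546) and kl.L (0.0586) with limma on log2(FPKM + 1), and tfap2c.L (0.134), gfus.L (0.0727) and slc35a3.2.S (0.0539) with all 12 libraries. The difference in genes detected was 1072 to 1722 with a pool left out. After thinning to 27265034 counts it was 1500 and did not pass (exact permutation p = 0.0857, two-sided). For genes with at least 5 counts it was 1147 (exact permutation p = 0.0286, two-sided, the lowest value possible with 4 against 4). Genes with few reads in biobots rest on counts at the floor, so their size is imprecise. The cause of these changes was not tested.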
